A study of Mus musculus with 18 samples.

Results

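Binding of the mouse basic leucine zipper protein CREB1 to DNA carrying 5-methylcytosine (5mC) was measured on 2 protein binding microarrays and set against 2 arrays of unmodified cytosine (C). These are 4 of the 18 arrays of the series, chosen by their labels for protein and double-stranding treatment. The other arrays carried CREB1 on 5-hydroxymethylcytosine DNA, or the related proteins ATF1 and JUND. All 4 arrays shared the protein preparation scheme: the DNA-binding domain with 15 native residues on either side, joined to a C-terminal GST tag, was expressed from 180 ng of plasmid in a 25 µL cell-free reaction (PureExpress). Bound protein was read in the Alexa Fluor 647 channel. The arrays, of the HK design, held single-stranded probes, and the second strand was synthesized from a primer with either 5mC or C in the nucleotide mix. On the 5mC arrays every cytosine of the synthesized strand was therefore meant to be methylated, in or out of a CpG, while the printed strand kept unmodified cytosine. The model has the limits of that design: a fragment of CREB1 without the rest of the protein, naked DNA, and methylation of 1 strand only.

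CREB1 binds DNA as a dimer, each subunit reading one side of the site in the major groove. Its best known target is the cAMP response element (CRE), a palindrome built from the half-site TGAC around a central CpG, through which CREB1 acts on genes induced by cAMP signalling. Methylation of that CpG is known to weaken CREB binding. The C/EBP proteins, another family of leucine zipper factors, read the half-site GCAA, and a CRE half-site joined to a C/EBP half-site forms a chimeric site. Because only 1 strand was methylated here, the 2 orientations of a site that is not a palindrome carry the methyl groups on different bases.

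The sites on which the results turn are shown as read on the synthesized strand, 5′ to 3′, and capitals mark the cytosines that are methylated on the 5mC arrays. The first 3 hold CRE or PAR half-sites, and those after them carry the C/EBP half-site on one strand or the other.
CRE palindrome: tgaCgtCa
CRE half-site joined to a PAR half-site: tgaCgtaa
PAR palindrome, the site of the PAR leucine zipper proteins: ttaCgtaa
chimera with the C/EBP half-site on the methylated strand: tgaCgCaa
chimera, other orientation, with TGAC and GCAA on the unmethylated strand: ttgCgtCa
C/EBP palindrome: ttgCgCaa
CpG-free composite, C/EBP half-site methylated: tgatgCaa
CpG-free composite, other orientation: ttgCatCa
highest site on 5mC DNA: CtaCgCaa
the same site, other orientation: ttgCgtag

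Each value for an 8-mer is the deposited z-score, a score of how far the probes that carry the 8-mer lie above the bulk of the array. It has no true zero, so differences are given and not folds. Of 65530 8-mers in the table, 65121 were carried by at least 1 of the 40330 probes of 35 bases in the orientation written, with a median of 17 probes each. The deposited scores followed scores recomputed from the raw signals of the synthesized strand (Spearman 0.975 and 0.965 on the CREB1 5mC and 0.968 and 0.972 on the CREB1 C arrays) more closely than those of the printed strand (0.264 to 0.509). Median probe signal was 1617 and 4592 on the 5mC arrays, against 1612 and 2135 on the C arrays. At a z-score of 4 or more, 1645 and 1277 8-mers were bound on the 5mC arrays, against 2766 and 3902 on the C arrays. Over all 8-mers, Pearson correlations were 0.840 within 5mC, 0.957 within C and 0.367 to 0.405 across. 5mC replicate 1 had the wider scale of scores, with a maximum of 128 against 60.1 in 5mC replicate 2, while the C arrays reached 193 and 146. Both 5mC maxima belong to 1 8-mer, of whose 16 probes 3 and 10 were saturated on those arrays, which limits its scores. Nothing in the labels ties the 2 arrays of a group to different batches of protein, so their spread may be technical. Each p-value of the main fits speaks of the spread between arrays pooled over the 9 groups of the series, not of the CREB1 arrays alone. These can differ. CTACGCAA had standard deviations of 48.4 on 5mC and 7.95 on C DNA, with a pooled SE of 16.5. ATGACTCA had 1.09 and 1.91, with a pooled SE of 10.2.

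CREB1 binding moved both ways on 5mC DNA. With limma on all 18 arrays, 1462 8-mers were higher (2.25% of those tested) and 4041 were lower (6.21%) at a Benjamini-Hochberg adjusted p under 0.05. Of the 5503 calls, 73.4% were lower with the deposited scores, 57.3% after quantile normalization between arrays and 62.9% with normexp-corrected log2 scores. After quantile normalization 870 were higher and 1167 lower. Without C replicate 2, 813 were higher and 2382 lower, and without C replicate 1, 757 were higher. The 8-mers at the top of the ranking were different ones on the 2 kinds of DNA. Among the 100 highest 8-mers of each array, GCAA stood in 76 and 77 on 5mC DNA and in 1 and 1 on C DNA. The tetranucleotide ACGT at the centre of the CRE stood in 7 and 4 of the 100 highest on 5mC DNA, against 62 and 63 on C DNA. The 5mC arrays shared 82 of these 100 with each other, the C arrays shared 92, and any 5mC array shared 14 to 17 with a C array.

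**Figure D1:**
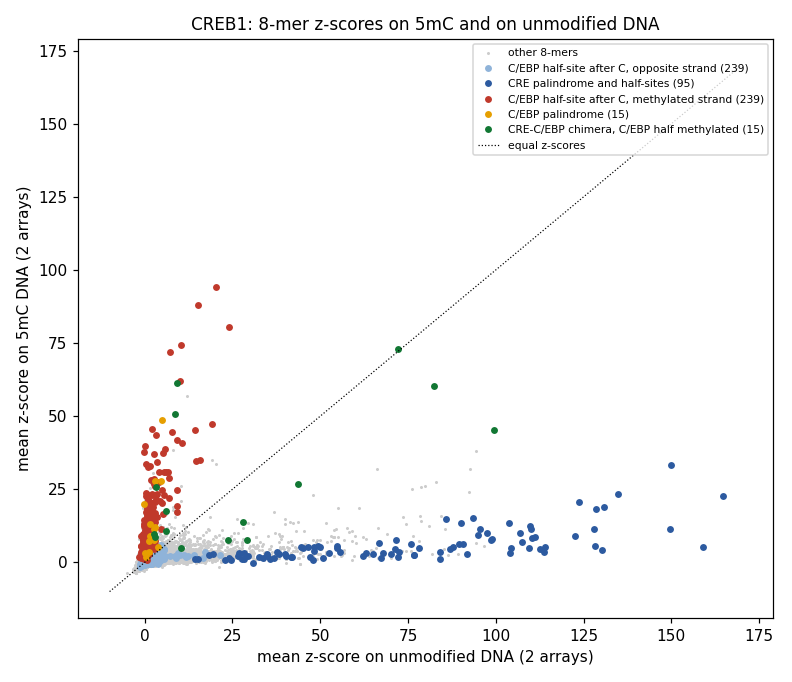
Each point is 1 of 65121 8-mers, by its mean z-score on unmodified DNA (x axis) and on 5mC DNA (y axis), 2 arrays each; colours mark site classes, with the number of 8-mers in brackets, and the dotted line marks equal scores. The CRE palindrome and half-sites run along the x axis, while 8-mers with the C/EBP half-site after C on the methylated strand run up the y axis.

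The CRE itself lost most of its score. TGACGTCA had z-scores of 33.7 and 12.0 on 5mC DNA, against 193 and 136 on C DNA, a change of -142 (SE 15.2, limma adjusted p = 1.91e-06). The groups did not overlap, and the site ranked 52nd and 133rd on the 5mC arrays, against 1st and 3rd on the C arrays. Among its 19 probes, 0 and 1 were saturated on the 5mC arrays, against 4 and 8 on the C arrays. TGACGTAA, which joins a CRE half-site to a PAR half-site, had 49.1 and 17.8 on 5mC DNA, against 154 and 146 on C DNA, a change of -116 (SE 9.07, adjusted p = 4.75e-08). Of its 17 probes, 0 and 0 were saturated on the 5mC arrays, against 0 and 6 on the C arrays. On both 5mC arrays the site stood above the palindrome. Written in the other orientation, TTACGTCA, it had 5.98 and 4.16 on 5mC DNA, against 91.4 and 117 on C DNA, a change of -99.2 (SE 13.6, adjusted p = 3.52e-05). With a log2 score in place of the z-score, the changes of TGACGTCA and TGACGTAA missed the threshold (limma adjusted p = 0.109 and 0.255), and that of TGACGTAA also did with normexp-corrected log2 scores (0.0636).

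The loss covered the whole CRE family in both orientations. All 15 8-mers holding a 7-base core of the palindrome fell, with class medians of 5.27 and 3.23 on the 5mC arrays, against 58.7 and 72.0 on the C arrays. All 40 further 8-mers with TGACGT as written fell, with a median change of -65.2, as did all 40 with ACGTCA as written, with a median change of -68.0. The 8-mers tested as a whole had a median change of -0.06, and 6.21% of them fell. The PAR palindrome, the site of the circadian PAR leucine zipper factors, behaved alike: its 15 8-mers all fell, with a median change of -42.9. TTACGTAA had 16.3 and 6.39 on 5mC DNA, against 84.3 and 86.9 on C DNA. Its change was -74.3 (SE 10.5, limma adjusted p = 5.01e-05), with an adjusted p of 0.174 after quantile normalization. The largest fall of any 8-mer that passed was that of ACGTCACA, at 8.30 and 1.85 on 5mC DNA, against 178 and 140 on C DNA. Its change was -154 (SE 14.8, limma adjusted p = 5.62e-07). Of its 18 probes, 0 and 1 were saturated on the 5mC arrays, against 2 and 5 on the C arrays. Fitted on the 4 CREB1 arrays alone, 7 of 15 core, 24 and 18 of 40 half-site and 2 of 15 PAR 8-mers passed; quantile normalization left 9 of 15 PAR 8-mers.

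The fall reached sites without a CpG. Of all 8-mers, 6.21% fell. Among 848 8-mers with TGAC as written and no CpG, 236 fell (27.8%), and among 848 with GTCA as written 299 fell (35.3%). The median changes were -1.42 and -1.56. TGATGTCA, the CRE with its first half-site changed to TGAT, had 2.76 and 3.32 on 5mC DNA, against 33.2 and 49.8 on C DNA, a change of -38.5 (SE 3.80, limma adjusted p = 7.53e-07). Its reverse complement TGACATCA had 3.90 and 0.38 on 5mC DNA, against 21.3 and 40.5 on C DNA, a change of -28.7 (SE 3.85, adjusted p = 2.73e-05). In both, all scores on C DNA lay above those on 5mC DNA. Fitted on the 4 CREB1 arrays alone, neither passed (adjusted p = 0.219 and 0.109). Without C replicate 2 the change of TGACATCA was -19.1. The class counts of falls were 29 and 99 after quantile normalization, 144 and 197 without 5mC replicate 1, 103 and 162 without C replicate 2, and 145 and 215 without 5mC replicate 2.

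Other sites around ACGT lost score as well, at lower levels. Of 1120 remaining 8-mers with ACGT, 906 fell (80.9%) and 0 rose, against 6.21% and 2.25% of all 8-mers. At an unadjusted limma p under 0.05, 2 were higher. The median change was -4.90. Of 48 8-mers with the E-box CACGTG, the site of MYC, MAX and USF, 29 fell (60.4%) and 0 rose at either level of p. Their class medians were 1.87 and 2.07 on 5mC DNA, against 6.03 and 8.58 on C DNA. CACGTGAC, an E-box running into a TGAC half-site on the synthesized strand, had 6.15 and 4.57 on 5mC DNA, against 36.9 and 42.1 on C DNA. Its change of -34.1 (SE 3.77, limma adjusted p = 2.84e-06) missed the threshold after quantile normalization (0.237), on the 6 CREB1 arrays alone (0.108) and on the 4 (0.284). Quantile normalization left 373 falls among the 1120 and 2 among the 48, and 19 and 16 E-box 8-mers fell without 5mC replicate 1 and without C replicate 2.

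**Figure D2:**
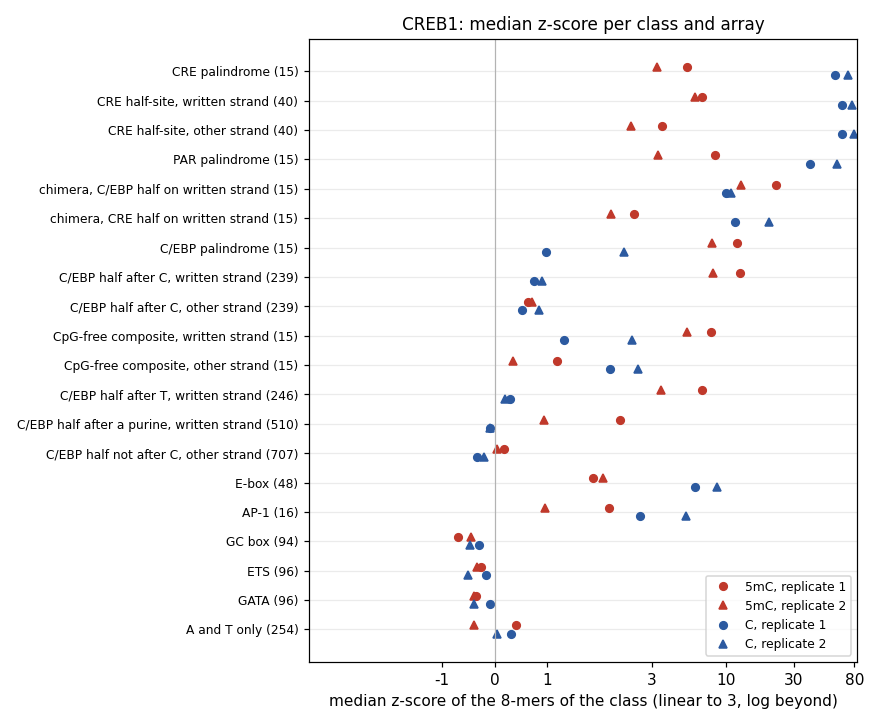
Median z-score of the 8-mers of each site class (number of 8-mers in brackets) in each array, on an axis that is linear to 3 and logarithmic beyond; red marks the 5mC and blue the C arrays, circles replicate 1 and triangles replicate 2. CRE and PAR classes lie far to the right on C DNA, at 38.7 to 79.9, and C/EBP half-sites on the written strand lie to the right on 5mC DNA, at 8.07 and 12.4 after C.

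The gain on 5mC DNA was centred on GCAA, and on the strand that carries the methyl group. Of 1229 8-mers holding GCAA as written and no TTGC, 676 rose (55.0%) and 4 fell, with a median change of 2.93. Of 1228 holding TTGC and no GCAA, which puts the C/EBP half-site on the unmethylated strand, 59 rose and 59 fell (4.80% each). Their median change was 0.28. Of all 8-mers, 2.25% rose and 6.21% fell. The rises among the 1229 numbered 393 without 5mC replicate 1, with a median change of 1.95, and those among the 1228 numbered 19 without C replicate 1 and 27 without C replicate 2. After quantile normalization the counts of rises were 467 and 22, and the 59 falls numbered 16.

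The gain differed with the base before GCAA. Outside the chimeras and palindromes, 221 of 239 8-mers with CGCAA rose and 0 fell (0 also at an unadjusted limma p under 0.05). Their class medians were 12.4 and 8.07 on 5mC DNA, against 0.75 and 0.91 on C DNA, and the median change was 9.03. After a T, where no CpG is formed, 198 of 246 rose, with a median change of 4.64. After a purine, 126 of 510 rose, with a median change of 1.67. With the same bases turned to the other strand, 7 of 239 8-mers with TTGCG rose (2.93%) and 36 fell (15.1%). Among 707 with TTGC before another base than G, 38 rose (5.37%). The shares over all 8-mers were 2.25% for rises and 6.21% for falls. Those 7 numbered 0 without C replicate 1, 11 without 5mC replicate 1 and 3 without C replicate 2, and those 38 numbered 12 without C replicate 1, 15 without C replicate 2 and 12 after quantile normalization. The median change after a purine was 0.95 without 5mC replicate 1. The order C, T, purine held for the median change in all 4 fits that left out a CREB1 array. The counts after T were 129 with quantile normalization and 114 without 5mC replicate 1; those after a purine were 46 with quantile normalization, 45 without C replicate 1, 23 without 5mC replicate 1, 49 without C replicate 2 and 210 without 5mC replicate 2.

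In z-score, the gain also differed with the bases flanking CGCAA. Each preceding or following base was carried by 48 8-mers. Before CGCAA the median change was 19.6 for A, 9.90 for G, 8.04 for T and 6.38 for C. After CGCAA it was 21.9 for T, 12.9 for C, 6.59 for G and 3.69 for A. Without 5mC replicate 1 the medians were 9.28, 7.62, 5.06 and 4.74 with A, G, T and C before CGCAA. After it they were 14.1, 9.70, 5.04 and 2.05 with T, C, G and A. With log2 scores the medians before CGCAA were 1.55 for A, 1.63 for G, 1.45 for T and 1.54 for C. The order of preceding bases thus did not hold in log2. After CGCAA the log2 medians were 2.30, 1.70, 1.35 and 0.92 for T, C, G and A, in the same order. The order of following bases was the same after TGCAA, at 10.6 for T, 6.63 for C, 3.62 for G and 2.64 for A. These 8-mers overlap and share probes, so they are not independent. By hexamers, the largest mean changes among 4096 were those of CGCAAT at 27.5 and ACGCAA at 23.1, and the largest negative ones those of ACGTCA at -69.2 and TGACGT at -67.2, over 48 8-mers each.

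Among the 64 8-mers that end in CGCAA, 59 rose and 0 fell (0 also at an unadjusted limma p under 0.05), against 2.25% and 6.21% of all 8-mers. Those with A before the CpG held the 6 largest changes. CTACGCAA, first in the ranking of both 5mC arrays, had 128 and 60.1 on 5mC DNA, against 14.7 and 25.9 on C DNA, a change of 74.0 (SE 16.5, limma adjusted p = 0.0051). It ranked 522nd and 418th on the C arrays, and its call held in 13 of 13 alternative settings. Of its 16 probes, 3 and 10 were saturated on the 5mC arrays, against 0 and 0 on the C arrays, so that its scores on 5mC DNA are limited by the range of the scanner. Without 5mC replicate 1 its change was 39.8. CGACGCAA had 81.9 and 40.7 on 5mC DNA, against 8.14 and 10.3 on C DNA, a change of 52.1 (SE 10.1, adjusted p = 0.00142) that missed the threshold on the 6 CREB1 arrays alone (0.167) and on the 4 (0.334) and was 31.5 without 5mC replicate 1. CCACGCAA had 59.0 and 28.4 on 5mC DNA, against 3.12 and 3.46 on C DNA, a change of 40.4 (SE 6.04, adjusted p = 9.82e-05). In both, each score on 5mC DNA was above each on C DNA, for CGACGCAA a condition of its place among the largest rises. Of the 19 probes of CGACGCAA, 0 and 5 were saturated on the 5mC arrays, against 0 and 0 on the C arrays. TTACGCAA had 66.5 and 28.4 on 5mC DNA, against 13.8 and 24.4 on C DNA, and did not pass (adjusted p = 0.0809).

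8-mers that take in the bases after CGCAA were also high. ACGCAATA had 126 and 49.98 on 5mC DNA, against 11.4 and 18.97 on C DNA, a change of 72.7 (SE 18.3, limma adjusted p = 0.013). Its change was 34.8 without 5mC replicate 1 and 111 without 5mC replicate 2, with 2 and 6 of its 19 probes saturated on the 5mC arrays, against 0 and 1 on the C arrays. Its call was lost without C replicate 1 (adjusted p = 0.0895), without 5mC replicate 1 (0.117) and without C replicate 2 (0.0875). CGCAATAC had 99.6 and 44.2 on 5mC DNA, against 5.64 and 8.50 on C DNA, a change of 64.8 (SE 12.7, adjusted p = 0.0016), which missed the threshold on the 6 CREB1 arrays alone (0.0838) and on the 4 (0.200) and was 37.1 without 5mC replicate 1. In both sites each score on 5mC DNA was above each score on C DNA, a condition of their place among the largest rises. Of the 15 probes of CGCAATAC, 1 and 3 were saturated on the 5mC arrays, against 0 and 0 on the C arrays.

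The C/EBP palindrome gained as well, from a low level. TTGCGCAA had 32.0 and 23.3 on 5mC DNA, against 3.73 and 5.81 on C DNA, a change of 22.9 (SE 2.98, limma adjusted p = 1.97e-05). It ranked 62nd and 33rd on the 5mC arrays, against 3010th and 2567th on the C arrays. Of the 15 8-mers holding a 7-base core of the palindrome, 12 rose and 0 fell (0 also at an unadjusted limma p under 0.05), with a median change of 7.44. Over all 8-mers, 2.25% rose and 6.21% fell. The call for TTGCGCAA was lost on the 6 CREB1 arrays alone (adjusted p = 0.0514) and on the 4 (0.174), where 7 of 15 class members passed.

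**Figure D3:**
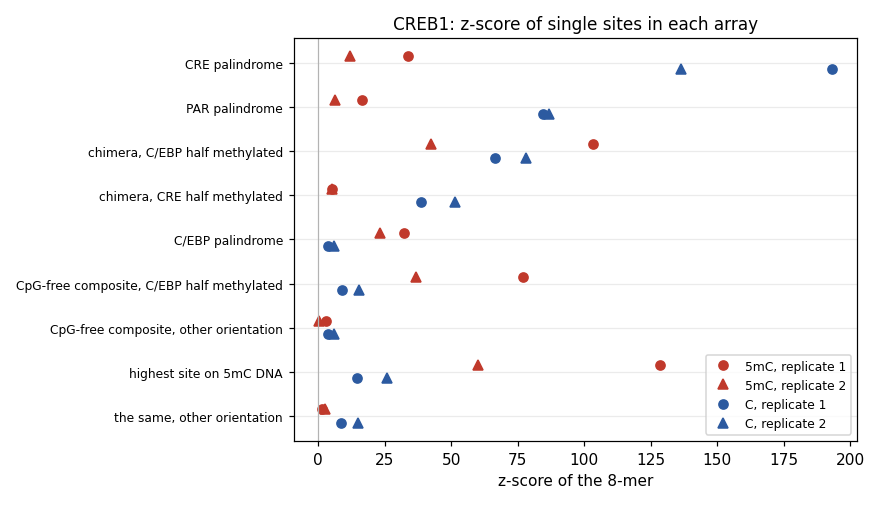
z-score (x axis) of 9 single sites in each array; red marks the 5mC and blue the C arrays, circles replicate 1 and triangles replicate 2. The CRE palindrome lies at 33.7 and 12.0 on 5mC DNA, against 193 and 136 on C DNA, while the highest site on 5mC DNA lies at 128 and 60.1 there, against 14.7 and 25.9 on C DNA.

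The chimera of a CRE half-site and a C/EBP half-site did not pass in one orientation and fell in the other. With the C/EBP half-site on the methylated strand, TGACGCAA had 103 and 42.4 on 5mC DNA, against 66.4 and 78.1 on C DNA. The C scores lay between the 5mC scores, and the change of 0.65 (SE 12.6) did not pass (limma adjusted p = 0.989). Of its 17 probes, 4 and 6 were saturated on the 5mC arrays, against 2 and 4 on the C arrays, which limits these scores. In rank the site stood 4th and 7th on the 5mC arrays, against 76th and 71st on the C arrays, and after quantile normalization it rose (adjusted p = 4.9e-05). In the other orientation, TTGCGTCA had 5.12 and 5.11 on 5mC DNA, against 38.5 and 51.4 on C DNA, a change of -39.8 (SE 4.47, adjusted p = 3.54e-06) that missed the threshold on the 4 CREB1 arrays alone (0.301). Of the 15 8-mers of the first orientation, 6 rose and 5 fell, and of the 15 of the second, 14 fell and 0 rose (0 also at an unadjusted limma p under 0.05). The shares over all 8-mers were 2.25% for rises and 6.21% for falls. The 5 falls of the first orientation numbered 0 after quantile normalization and 0 to 3 when a CREB1 array was left out (3 without C replicate 1, 3 without 5mC replicate 1, 0 without C replicate 2, 1 without 5mC replicate 2). The 14 falls of the second numbered 8 after quantile normalization.

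ATGACGCA, a chimera shifted by 1 base, showed the contrast within one site. As written it had 80.2 and 40.3 on 5mC DNA, against 82.8 and 82.1 on C DNA, and did not pass (limma adjusted p = 0.451). After quantile normalization its change turned positive and passed (31.4, adjusted p = 0.00777). Its reverse complement TGCGTCAT had 8.10 and 4.80 on 5mC DNA, against 85.1 and 104 on C DNA, a change of -88.0 (SE 14.1, adjusted p = 0.000217). On C DNA the orientations were at like levels, and on 5mC DNA the one with GCA on the methylated strand was higher on both arrays. The site was chosen for a large shift between orientations, so this contrast largely followed from the choice. Of the 16 probes of ATGACGCA, 2 and 3 were saturated on the 5mC arrays, against 1 and 2 on the C arrays.

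Sites that join TGAT or TTAT to GCAA hold no CpG, yet were among the higher ones on 5mC DNA. TGATGCAA had 76.8 and 36.8 on 5mC DNA, against 8.81 and 15.4 on C DNA. It ranked 10th on both 5mC arrays, against 978th and 828th on the C arrays. Of its 17 probes, 1 and 3 were saturated on the 5mC arrays, against 0 and 0 on the C arrays. The groups did not overlap, which among all 65121 8-mers held for 14201 in this direction and 18776 in the other. By the limma test, 2.25% of all 8-mers rose and 6.21% fell. The change of 44.7 (SE 16.4) missed the threshold (limma adjusted p = 0.112). It passed after quantile normalization (2.59e-07) and on the 6 CREB1 arrays alone (0.0221). Its reverse complement TTGCATCA had 2.88 and 0.36 on 5mC DNA, against 3.70 and 5.92 on C DNA, a change of -3.19 (SE 0.905, adjusted p = 0.0301), a call lost without C replicate 2 (-2.08, 0.365), without 5mC replicate 2 (-1.93, 0.404) and after quantile normalization (0.635). TTATGCAA had 37.2 and 23.7 on 5mC DNA, against 1.68 and 3.14 on C DNA, a change of 28.1 (SE 7.38, adjusted p = 0.0182). That call was lost without C replicate 1 (0.0742), without 5mC replicate 1 (0.168), without C replicate 2 (0.0825), on the 6 CREB1 arrays alone (0.441) and on the 4 (0.105). Of 15 CpG-free composite 8-mers with GCAA as written, 7 rose and 0 fell (0 also at an unadjusted p under 0.05); 3 rose after quantile normalization, 4 without C replicate 1 and 2 without 5mC replicate 1.

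The effect of strand was tested within arrays, as the score of an 8-mer minus that of its reverse complement, which takes array-wide shifts out. Of 32225 pairs, 1637 changed (5.08%) on 5mC DNA, with 994 without 5mC replicate 1, 938 without C replicate 2, 548 after quantile normalization and 468 with log2 scores. In 255 pairs with CGCAA in 1 of the orientations, the score shifted towards CGCAA as written in 213 and away from it in 0. The median shift was 9.50, made of a median change of 9.15 as written and of -0.07 in the other orientation. In 208 pairs with TGCAA, 108 shifted towards it and 1 away, with a median of 3.73. In 47 pairs with TGACGT, 16 shifted towards it and 10 away, with a median of 1.68: the median change was -63.8 as written and -67.1 in the other orientation. The counts for CGCAA were 138 with log2 scores and 171 to 223 when a CREB1 array was left out. The counts for TGCAA were 53 with quantile normalization, 43 with log2 scores, 67 without C replicate 1, 50 without 5mC replicate 1 and 60 without C replicate 2; those for TGACGT were 8 and 6 with quantile normalization and 2 and 0 with log2 scores.

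The single pairs given here were chosen among the largest shifts, written in the orientation that gained. Their shifts lie far above the median of 9.50 for pairs with CGCAA. The same rule also chose pairs without GCAA in either orientation. These were TGTGACGT (a shift of 63.3), GTGACGTC (47.3) and TTGAGGGG (44.8, with 2 probes in its other orientation). CTACGCAA and its reverse complement TTGCGTAG shifted by 83.8 (SE 12.9, limma adjusted p = 0.000624). TTGCGTAG had 1.34 and 2.46 on 5mC DNA, against 8.59 and 14.8 on C DNA, so this site, which on C DNA was bound in both orientations, stood below a score of 4 in one of them on both 5mC arrays. ACGCAATA and TATTGCGT shifted by 87.9 (SE 14.4, adjusted p = 0.00107), with TATTGCGT at 1.53 and 1.14 on 5mC DNA, against 14.8 and 18.2 on C DNA. ATGACGCA and TGCGTCAT shifted by 65.8 (SE 8.67, adjusted p = 0.00015). For CTACGCAA, ACGCAATA and ATGACGCA, the orientation with GCAA, or in ATGACGCA only GCA, on the methylated strand was the higher one on both 5mC arrays. That the orientation that gained was the higher one largely followed from the choice. These 3 shifts passed without any 1 of the 4 arrays, but not on the 6 CREB1 arrays alone (adjusted p = 0.576, 0.922 and 0.0873) or on the 4 (0.998, 0.976 and 0.0577).

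**Figure D4:**
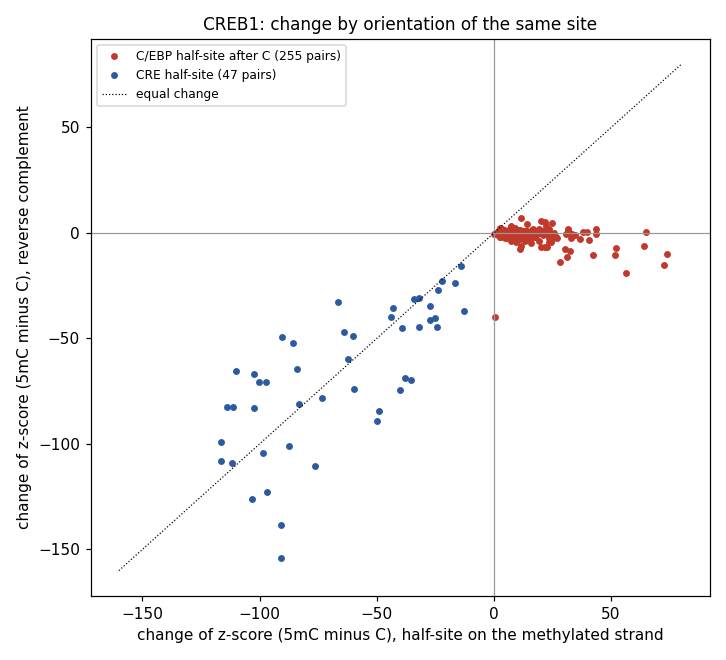
Change of z-score (5mC minus C) of a site with the half-site on the methylated strand (x axis) against that of its reverse complement (y axis); red points are 255 pairs with CGCAA, blue points 47 pairs with TGACGT, and the dotted line marks equal change. The red points spread along the x axis near 0 on the y axis, and the blue points lie in the lower left around the line.

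Single-base neighbours kept or lost their scores by position. For comparison, 2.25% of all 8-mers rose and 6.21% fell. Of the 24 neighbours of TGACGTCA, 7 kept a score of 4 or more on both arrays on 5mC DNA, against 21 on C DNA, and 21 fell. All 3 changes of its seventh base stayed bound on 5mC DNA, the highest being TGACGTAA. Of the 24 neighbours of TTGCGCAA, 10 were bound on 5mC DNA, against 2 on C DNA, and 10 rose and 1 fell. On 5mC DNA all 9 changes in its first 3 bases were bound, and 1 of 15 in the CGCAA that follows. The neighbour that fell was TTGCGTAA, which loses the methylated GCAA, with 4.40 and 2.43 on 5mC DNA, against 15.7 and 18.4 on C DNA. Of the 24 neighbours of CTACGCAA, 15 were bound on 5mC DNA, against 10 on C DNA, and of those of TGACGCAA 17 on 5mC DNA, against 14 on C DNA.

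Most 8-mers outside these families did not pass, but those with a CpG held many of the falls. Of 22642 8-mers with a CpG outside the named classes, 359 rose (1.59%) and 1878 fell (8.29%), a share of falls above that of all 8-mers, with a median change of -0.13. The largest fall among them was that of CGCGTCAT, which holds GTCA, with 7.36 and 4.08 on 5mC DNA, against 94.5 and 99.0 on C DNA, a change of -91.0 (SE 10.4, limma adjusted p = 4.45e-06). The largest rise was that of GCTACGCA, which overlaps CTACGCAA, with 46.9 and 29.8 on 5mC DNA, against 6.15 and 9.82 on C DNA, a change of 30.4 (SE 4.05, adjusted p = 2.61e-05). The rises of the class numbered 135 without C replicate 1, 179 without C replicate 2 and 218 after quantile normalization. Its falls numbered 1195 without 5mC replicate 1, 1009 without C replicate 2 and 435 after quantile normalization. Of 30658 others with C but no CpG, 481 rose (1.57%) and 467 fell (1.52%), with a median change of 0.03. Those rises numbered 191 without C replicate 1, 195 without C replicate 2 and 239 after quantile normalization, and the falls 212 without 5mC replicate 1, 222 without C replicate 2, 258 without 5mC replicate 2 and 119 after quantile normalization.

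Of 6556 8-mers with no C as written, which hold no methyl group themselves, 3 rose (0.0458%) and 51 fell (0.778%), both shares under those of all 8-mers. The 3 rises numbered 12 without 5mC replicate 1, and 1 without C replicate 1 or without 5mC replicate 2. The falls numbered 2 after quantile normalization, 20 without 5mC replicate 1, 18 without C replicate 2 and 15 without 5mC replicate 2. Of 94 8-mers with a GC box, the SP1 site with its CpG, 0 changed (limma, 1 higher and 2 lower at an unadjusted p under 0.05). The 96 with an ETS site and the 96 with a GATA site had median changes of -0.01 and -0.22. All these class medians lay under 0 on both kinds of DNA, so a loss of binding could hardly show. For the GC box they were -0.69 and -0.45 on 5mC DNA, against -0.29 and -0.46 on C DNA. Of 16 8-mers with the AP-1 heptamer, which holds the same TGAC half-site without a CpG, 0 passed in the main limma fit (0 also at an unadjusted p under 0.05). Their class medians were 2.19 and 0.96 on 5mC DNA, against 2.76 and 5.22 on C DNA, with a median change of -1.89. The main fit could hardly call changes of this size. For ATGACTCA, with a change of -3.08, the pooled SE was 10.2, against CREB1 standard deviations of 1.09 and 1.91. On the 6 CREB1 arrays alone 5 of the 16 AP-1 8-mers fell, on the 4 alone 4, and with normexp-corrected log2 scores 3. Among pentamers in 8-mers without GCAA, the largest mean changes were those of GCGCA at 1.502 and CGCAG at 1.21.

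The same patterns stood in the raw signals of single probes. The probe signal is a spot's brightness on a linear scale, and levels were taken as log2 after background correction, relative to the array median. Of 40330 probes, 1497 were higher (3.71%) and 2626 were lower (6.51%) on 5mC DNA. The 4123 calls numbered 2388 without C replicate 1, 1345 without C replicate 2, 2158 without 5mC replicate 2, 1157 after quantile normalization and 2420 with plain background subtraction. Of 1193 probes with CGCAA on the synthesized strand, 498 rose, with a median log2 change of 1.55. The 1243 with TTGCG there had a median change of -0.11. Of 287 probes with TGACGT, 191 fell, with a median of -2.43, and of 306 with ACGTCA, 226 fell, with a median of -2.79. The 21320 probes with neither the C/EBP nor the CRE half-site in either orientation, and no ACGT, had a median of 0.03. Among all probe calls 63.7% were lower, against 44.6% after quantile normalization. The CGCAA rises numbered 327 with quantile normalization, 312 with plain background subtraction, 266 without C replicate 1, 249 without 5mC replicate 1 and 247 without C replicate 2. The TGACGT falls numbered 47 with quantile normalization, 89 without C replicate 2 and 112 without 5mC replicate 2, and the ACGTCA falls 107 with quantile normalization and 143 without C replicate 2.

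The probes with the largest changes show the sites in their context. Each is given as the synthesized strand, and capitals mark the 8-mer it carries with the highest mean score, on 5mC DNA for a rise and on C DNA for a fall.
rise 1: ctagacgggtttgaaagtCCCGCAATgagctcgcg
rise 2: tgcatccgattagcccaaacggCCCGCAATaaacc
rise 4: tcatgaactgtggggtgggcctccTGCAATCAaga
fall 1: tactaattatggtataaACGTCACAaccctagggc
fall 3: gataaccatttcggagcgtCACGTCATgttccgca
The probe rise 1 had signals of 15197 and 31522 on 5mC DNA, against 693.5 and 1477.5 on C DNA, where that of C replicate 1 lay under its local background of 722. It rose (limma adjusted p = 9.45e-06), and since only 1 of the 2 C arrays measured it above background, no size is given. The probe rise 2 holds the same 8-mer and had 29681 and 47774 on 5mC DNA, against 1835.5 and 2442 on C DNA. The probe rise 4 holds no CGCAA but TGCAATCA, and had 11876.5 and 16743 on 5mC DNA, against 1070 and 1451 on C DNA. In all 3, both 5mC signals were above both C signals. Named probes were taken from those whose arrays did not overlap, so this followed from the choice. The probe fall 1 had 2458.5 and 637 on 5mC DNA, against 48579 and 45433 on C DNA, a log2 change of -6.51 (SE 0.84, adjusted p = 4.05e-05). The probe fall 3 had 3284.5 and 1782.5 on 5mC DNA, against 45288.5 and 52208.5 on C DNA. Of the 10 probes with the largest changes, 5 each way, the calls of 9 held in 13 of 13 alternative settings, these 5 among them. That of the fifth largest fall, which carries CTATGACG, was lost without 5mC replicate 1 (0.143), without C replicate 2 (0.0741), after quantile normalization (0.142) and with plain background subtraction (0.0722).

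Where a site lay in the probe went with its level on both kinds of DNA. Probes were grouped by the first base of the site, counted from the 5′ end of the synthesized strand. For CGCAA the median log2 change was 0.68 at bases 1 to 6, 1.18 at 7 to 12, 1.96 at 13 to 18, 2.39 at 19 to 24 and 1.55 at 25 to 31. For TGACGT it was -2.03, -2.43, -2.58, -2.82 and -2.38 over the same bins, the last ending at base 30. The direction was the same in every bin.

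**Figure D5:**
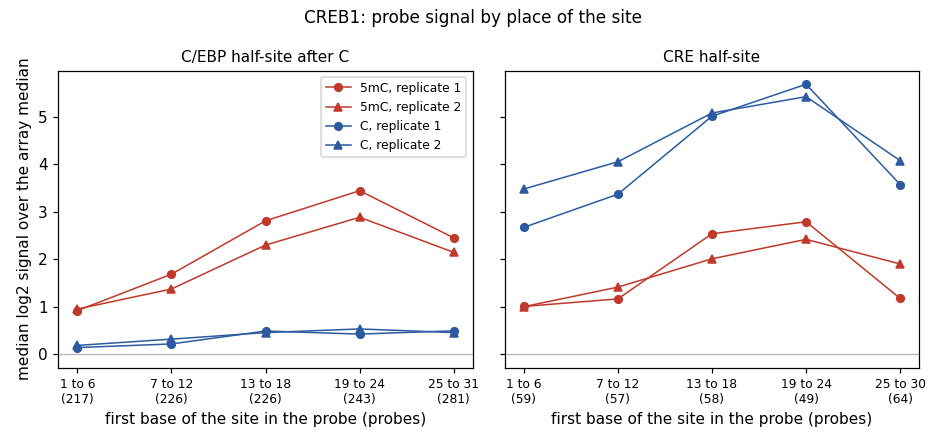
Median log2 probe signal over the array median (y axis) by the first base of the site in the probe (x axis, number of probes in brackets), for probes with CGCAA (left) and TGACGT (right); red lines are the 5mC and blue lines the C arrays, circles replicate 1 and triangles replicate 2. On the 5mC arrays both sites peak at bases 19 to 24, where CGCAA probes stand at 3.44 and 2.88, against 0.42 and 0.53 on C DNA; on the C arrays TGACGT peaks there too, at 5.68 and 5.42.

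ATF1, the closest relative of CREB1 in the series, was measured on the same kinds of DNA on 4 other arrays. On 5mC DNA 777 8-mers were higher (1.19%) and 1341 were lower (2.06%) for ATF1. Its CRE core class fell in 12 of 15 8-mers, with a median change of -34.5, and its 239 8-mers with CGCAA as written rose in 81, with a median change of 4.38. A test of the difference of the 5mC effect, CREB1 minus ATF1, called 177 8-mers (0.272%), 13 with a higher and 164 with a lower effect in CREB1. Of the 164, 78 lay in the class of other ACGT sites, 50 among the 22642 other 8-mers with a CpG, 4 and 16 among the CRE half-sites by orientation and 5 in the CRE core, and of the 13, 10 held GCAA as written. The z-scores of the proteins have different ranges, and after quantile normalization the limma test called 0 (1700 at an unadjusted p under 0.05). The count was 1327 without CREB1 C replicate 1, 54 without CREB1 5mC replicate 1, 270 without CREB1 C replicate 2 and 413 without CREB1 5mC replicate 2. It was 66 without ATF1 C replicate 1, 23 without ATF1 5mC replicate 1, 50 without ATF1 C replicate 2 and 3 without ATF1 5mC replicate 2. The number of differences between the proteins thus depended on the scale of the scores and on single arrays.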

How the data were processed

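CREB1 was measured on 2 arrays with 5mC and 2 with unmodified DNA; all 18 arrays of the series, in 9 groups of 2, entered each fit, so that the spread had 9 residual degrees of freedom. The authors deposited a table of 8-mer z-scores, a score whose method the sources used here do not describe, and per array the probe intensity and local background, per the file headers. Which scanner and software read the slides, the labels and headers used here leave unstated. 8-mers were read as written on the synthesized strand. Missing scores (6 among the tested 8-mers) were left out of the fit of their 8-mer; 409 8-mers without a probe were not tested. limma 3.58.1 in R 4.3.3 (lmFit, eBayes with a mean-variance trend) was used on z-scores, on within-array differences between an 8-mer and its reverse complement, and on log2 probe intensities after normexp with an offset of 50 and centring on the array median. p-values were two-sided and adjusted by Benjamini-Hochberg over all features of a fit. The number of arrays limits the precision. Site classes were exclusive, each 8-mer going to the first of 26 classes it matched.

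Named 8-mers were fixed sites, the 10 largest rises and falls that passed with arrays that did not overlap, the 10 highest of each group, the 5 largest strand shifts each way, 3 neighbours of each of 3 sites, the extremes of each class and the 8-mers that end in CGCAA; named probes were the 5 largest changes each way. Members and lists were chosen with earlier results of these data known. Replicate arrays differed in nearly all probes (0 of 40330 equal signals in 5mC, 7 in C). The deviations of the CREB1 5mC and C arrays that share a replicate number had a correlation of -0.104. That value covers only these CREB1 arrays, and the labels do not state what the replicate number stands for. Whether replicate numbers mark shared batches was not tested. The fit was tested on simulated data. Alternatives were left-out arrays, quantile normalization, log2 scores of the probe signals with plain subtraction or normexp, fits on the 6 or 4 CREB1 arrays, no trend, a probe minimum, other background correction, brighter probes only and probes without saturation. Figures used Python 3.11.15 with matplotlib 3.10.9.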

Additional observations from a re-analysis of the deposited data

Results flagged for a closer look

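Of the 8-mers named in the text, 2 had a 5mC effect that differed between CREB1 and ATF1 by limma's test of the difference itself. CTGCGCAA, a neighbour of the C/EBP palindrome, had z-scores of 23.0 and 16.6 on 5mC DNA, against 0.00 and -0.52 on C DNA, for CREB1, and 8.09 and 8.95 on 5mC DNA, against 0.01 and 0.24 on C DNA, for ATF1. The CREB1 effect minus the ATF1 effect was 11.7 (adjusted p = 0.0186), with an adjusted p of 0.0964 to 0.125 when any of the 4 ATF1 arrays was left out. TACGTAGG, which holds ACGT, had 4.19 and 1.60 on 5mC DNA, against 67.2 and 68.3 on C DNA, for CREB1, and 0.35 and 0.70 on 5mC DNA, against 23.9 and 20.4 on C DNA, for ATF1. Its difference was -43.3 (adjusted p = 0.00383), with 0.0637 without ATF1 5mC replicate 1 and 0.0778 without ATF1 5mC replicate 2. After quantile normalization the differences were 3.40 and -3.36, and neither passed (adjusted p = 1.00 for both).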

How the results depend on the processing

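Among the 69 named 8-mers that passed, 771 of 894 calls over 13 alternative settings kept direction and threshold, 120 lost the threshold and 3 reversed, all 3 under quantile normalization: TGACGCCA (2.00), TGACGCGA (0.11) and GTGACGCA (11.8). Among 8-mers that had not passed, quantile normalization turned the sign of ATGACTCA (0.012), ATGACGCA (31.4), TGACGCAT (12.3), AATGCAAA (0.76) and CGTAGCAA (0.13), and normexp scores that of AATGCAAA (0.051). With 1 array left out in turn, both signs occurred for TGACGCAA (-29.8 to 31.1), CCCCGCAA (-1.43 to 1.67), TTGCATAA (-0.42 to 2.59), GCACGTGT (-0.29 to 1.23), TGAGTCAA (-0.31 to 1.61), TTGAGGGG (-0.38 to 0.092), AATGCAAA (-1.29 to 0.40) and GTATTGCG (-0.46 to 1.14). For TGACGTCA, log2 scores gave a change of -2.68 (limma adjusted p = 0.109). TTGCGCAA kept its change of 22.9 on the 6 and on the 4 CREB1 arrays alone, with adjusted p = 0.0514 and 0.174.

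Counts of 8-mers changed (5503) were 2037 with quantile normalization and 3195 to 4856 when an array was left out. Strand pairs changed (1637) numbered 887 on the 6 CREB1 arrays, 589 on the 4, 548 with quantile normalization, 468 with log2 scores and 938 to 1381 when an array was left out. Probes changed (4123) numbered 1157 with quantile normalization, 2420 with plain subtraction and 1345 to 2837 when an array was left out. Differences from ATF1 (177) numbered 383 without the trend, 0 with quantile normalization (1700 at an unadjusted limma p under 0.05) and 3 to 1327 when an array was left out. With the replicate number as a block the 4 counts were 5346, 1561, 3979 and 153. With 5mC numbers crossed, a setting chosen after seeing the data, they were 5349, 1582, 4124 and 157.

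Leaving out an array leaves 1 array in its group, which is then assumed to vary like the other groups. Of the 5503 called 8-mers, 46 rest on fewer than 5 probes, among them CCCCTGTT. Saturated probes (10 and 45 on 5mC, 17 and 60 on C arrays) bound the highest scores from above. The cause of lost calls was not tested.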
